A study of Homo sapiens with 12 samples.

Results

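The thioredoxin-interacting protein TXNIP, the alpha-arrestins ARRDC1, ARRDC2, ARRDC3, and ARRDC4, and the glucose-sensing transcription factors MLXIP, MLXIPL, and MLX were followed in uterine leiomyosarcoma (uLMS) cell lines. These 8 genes were taken by symbol from the 60649 genes of the count table. The group was chosen by the measured counts of TXNIP and ARRDC4 after MK-0752 alone against DMSO in SK-LMS-1, so the values of that comparison are a description, with no p-value given and no support drawn from them. RNA was sequenced from 12 libraries of SK-LMS-1, derived from a vulvar metastasis of uLMS, and SK-UT-1B, derived from a primary uterine tumor, each treated for 72 h. Both are established lines listed as wild type and were grown in the same medium with fetal bovine serum. SK-LMS-1 had 2 libraries after MK-0752 alone, 2 after MK-0752 given together with docetaxel and gemcitabine (the combination), and 4 after an equal volume of the DMSO vehicle. The DMSO libraries form DMSO set 2 (2-1 and 2-3) and DMSO set 4 (4-1 and 4-2) by the first number of their names, and MK-0752 (2-2 and 2-3) was set beside the former and the combination (4-1 and 4-2) beside the latter. For SK-UT-1B, there were 2 DMSO libraries (4-1 and 4-2) and 2 combination libraries (3-1 and 3-3). The first number thus differs between these groups, and also between the combination libraries of both lines, so whatever it marks cannot be told apart from the combination in SK-UT-1B, in the interaction, or between the treated lines. The count columns of SK-UT-1B carry its name, and the 8 columns without a line name were taken as SK-LMS-1 because the rest of each name matches its titles, an assignment on which every comparison of the lines rests. MK-0752 inhibits gamma secretase, the protease that releases the active fragment of Notch receptors, gemcitabine is a nucleoside analog, and docetaxel stabilizes microtubules. The study's methods give a lower dose of each agent in the combination than when it is used alone, so MK-0752 alone and the combination differ in the MK-0752 dose as well as in the added agents. They also set the combination by line, with more of every agent for SK-LMS-1, so between treated lines the cells and the doses cannot be told apart. Each line is a single cultured line, so a difference between them describes these lines and not primary and metastatic tumors.

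TXNIP binds reduced thioredoxin and limits its activity, and it promotes removal of glucose transporters from the cell surface. It belongs to the alpha-arrestins, adaptor proteins with an arrestin fold that bring NEDD4 family ubiquitin ligases to membrane proteins. When glucose enters the cell and is phosphorylated, MLXIP (also called MondoA) or MLXIPL (also called ChREBP) moves to the nucleus with its partner MLX and binds carbohydrate response elements, and TXNIP and ARRDC4 are among the best known targets of MondoA.

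The promoters of TXNIP, at the upstream of its 2 listed starts, and of ARRDC4 are shown because these are the members whose counts differed most between groups. The sequences are the 250 bases before the RefSeq start on GRCh38.p14, read 5′ to 3′ on the strand of the gene, chr1:145996580-145996829 on the minus strand for TXNIP and chr15:97960453-97960702 on the plus strand for ARRDC4. Capitals mark matches to 3 motifs searched on both strands: the E-box CACGTG, a pattern like the ChREBP response element (CACGNG, 5 bases of any kind, then CNCGNG), and the CCAAT box, which reads ATTGG when it lies on the other strand.
TXNIP: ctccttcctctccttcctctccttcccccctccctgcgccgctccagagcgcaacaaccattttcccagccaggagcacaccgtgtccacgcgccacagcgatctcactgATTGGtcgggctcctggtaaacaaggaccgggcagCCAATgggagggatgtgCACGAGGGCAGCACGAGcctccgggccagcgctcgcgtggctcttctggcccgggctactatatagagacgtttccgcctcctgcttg
ARRDC4: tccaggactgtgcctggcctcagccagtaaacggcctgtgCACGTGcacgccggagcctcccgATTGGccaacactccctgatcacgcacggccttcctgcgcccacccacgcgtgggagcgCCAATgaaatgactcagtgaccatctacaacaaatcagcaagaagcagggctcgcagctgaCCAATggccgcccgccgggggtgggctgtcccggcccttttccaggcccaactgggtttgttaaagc
Counted back from the start, TXNIP has the response element-like pattern at bases -88 to -72, which 0.424% of 35116 RefSeq promoter windows of this length hold. Its CCAAT boxes lie at -140 to -136 and -105 to -101, and 9.53% of windows hold at least 2. ARRDC4 has no match to the response element-like pattern but an E-box at -210 to -205, present in 6.34% of windows, and 3 CCAAT boxes, a number that 2.93% of windows reach. Of the other members, MLX has an E-box at -50 to -45, and no other member has an E-box or a response element-like match in these windows. The letters of the response element-like pattern were set after the TXNIP promoter had been seen, so its match there is no independent evidence.

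Total counts per library ran from 25250057 to 40709885. Of the genes for which the remaining libraries of a line predicted 5 to 500 counts, 17.4% to 34.7% were at 0 in a given library, against 0.0174% to 0.0373% from Poisson sampling. If each RNA molecule was read equally often and nothing else added zeros, this corresponds to 11.1 to 27.9 reads per molecule. Low counts would then rest on few molecules. The remaining libraries include other treatments, and real differences between libraries, which also give zeros, were not separated from this estimate. The smooth muscle markers ACTA2, CALD1, and SMTN were detected in every library of both lines, with CALD1 at a median of 352 CPM in SK-LMS-1 and 45.7 CPM in SK-UT-1B. CPM are counts scaled to a common library size. TAGLN and CNN1 had over 3 counts in all 8 SK-LMS-1 and 3 of 4 SK-UT-1B libraries. DES ran the other way, at 0 in SK-LMS-1 and at 1.37 to 9.76 CPM in SK-UT-1B. MYH11 and MYOCD were at or under 3 counts in all but 1 and 3 of the 12 libraries. Among markers of other cell types, the keratin KRT8 was at 87.0 to 109 CPM in SK-LMS-1 and at 0 in SK-UT-1B, and KRT18 at 64.3 to 144 CPM against at most 1.14, while CDH1 was at or under 3 counts in every library. The endothelial marker PECAM1 was at 1.46 to 7.93 CPM in SK-LMS-1 and at 0 in SK-UT-1B, and EPCAM, CDH5, and the leukocyte marker PTPRC did not exceed 1.04, 2.11, and 1.32 CPM.

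TXNIP (ENSG00000265972.6, minus strand of chromosome 1, hg38 145992435 to 145996579) varied most among the members, with a 126-fold range over the 12 libraries. In SK-LMS-1, it had 11.1 and 8.55 CPM in DMSO set 2, 5.68 and 10.7 CPM in DMSO set 4, and 16.9 and 21.4 CPM after the combination. After MK-0752 alone, it had 718 and 638 CPM. The SK-UT-1B libraries had 196 and 188 CPM with DMSO, and with the combination they had 471 and 294 CPM. By mean CPM, the order from the lowest was DMSO set 4, DMSO set 2, and the combination in SK-LMS-1, then DMSO and the combination in SK-UT-1B, then MK-0752 in SK-LMS-1, and only the 2 DMSO sets overlapped as neighbors in this order. The transcript took up 0.000547% of all counts in the lowest library and 0.0685% in the highest. The lowest library, DMSO 4-1 of SK-LMS-1, had 140 counts, estimated at 5.44 molecules, and the MK-0752 libraries had 25612 and 23478 counts, estimated at 1492 and 1232 molecules.

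ARRDC4 (ENSG00000140450.9, plus strand of chromosome 15, 97960703 to 97973833), an alpha-arrestin that like TXNIP limits glucose uptake, had the second widest range, 12.1-fold. It had 5.87 and 6.88 CPM in DMSO set 2, 4.14 and 9.46 CPM in DMSO set 4, and 13.1 and 8.17 CPM after the combination in SK-LMS-1. It had 49.6 and 34.1 CPM after MK-0752 alone. The DMSO libraries of SK-UT-1B had 14.9 and 20.5 CPM, and its combination libraries had 50.004 and 24.8 CPM. For ARRDC4, the SK-UT-1B combination libraries thus lay on either side of the MK-0752 libraries of SK-LMS-1, whereas for TXNIP all 4 SK-UT-1B libraries were below them. In bulk RNA, a change in the level per cell and in the share of cells with the transcript cannot be told apart. The libraries of the SK-LMS-1 combination and DMSO set 4 overlapped. Its counts ran from 102, estimated at 3.96 molecules in DMSO 4-1 of SK-LMS-1, to 1830.

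**Figure D1:**
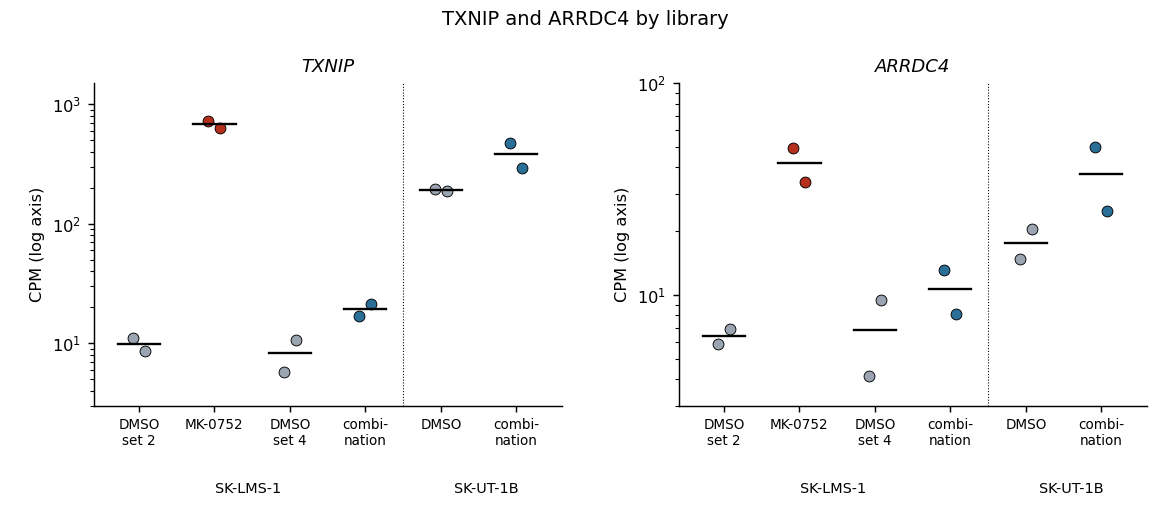
CPM of TXNIP and ARRDC4 on log axes in the 6 groups of 2 libraries, with points for libraries, lines for means, and a dotted line between the cell lines. The MK-0752 libraries sit highest for TXNIP, at 718 and 638 CPM, while for ARRDC4 they span 34.1 to 49.6 CPM beside 24.8 and 50.004 CPM in SK-UT-1B after the combination.

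After MK-0752 alone, the mean of TXNIP was 69.0 times that of DMSO set 2, a log2FC of 6.10 with a standard error of 0.34. The mean of ARRDC4 was 6.56 times as high, a log2FC of 2.71 with a standard error of 0.44. These values chose the members and are given as a description. The other alpha-arrestins were far closer to their control, with a log2FC of 0.25 for ARRDC3, 0.29 for ARRDC2, and -0.16 for ARRDC1. The regulators had a log2FC of -0.16 for MLXIP and 0.08 for MLX, while MLXIPL was at 0 counts in all 4 libraries. Thus 2 of 8 members met the study's thresholds (a log2FC of 1 or more in size with adjusted p under 0.05), beside 0.251% of all 21114 genes tested, a count from which nothing is read because the comparison was used for the choice. With DMSO set 4 as the control, the log2FC of TXNIP was 6.36, and over the libraries left out in turn it was 5.93 to 6.31, with 2.42 to 2.96 for ARRDC4. With that control, the direction turned for ARRDC1 (0.27), ARRDC2 (-0.12), and MLX (-0.48).

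The ratio of TXNIP to ARRDC4 also differed between groups. Per kb of exon, TXNIP had 1.28 to 2.96 times the CPM of ARRDC4 in the 6 SK-LMS-1 libraries without MK-0752 alone, and 16.3 and 21.1 times after MK-0752 alone. In SK-UT-1B, the ratio was 14.9 and 10.4 with DMSO, and with the combination it was 10.6 and 13.4. No library of SK-LMS-1 outside the MK-0752 group therefore approached the ratio of SK-UT-1B, and in SK-UT-1B the DMSO and combination libraries overlapped.

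Of the remaining alpha-arrestins, ARRDC3 (ENSG00000113369.9), an adaptor for degradation of adrenergic receptors and integrin beta 4, was the most abundant. It had 144 and 114 CPM in DMSO set 2, 158 and 148 CPM after MK-0752, 101 and 109 CPM in DMSO set 4, and 121 and 136 CPM after the combination in SK-LMS-1. In SK-UT-1B, it had 53.9 and 62.4 CPM with DMSO, then 99.5 and 47.0 CPM with the combination, so that all 8 SK-LMS-1 libraries were above all 4 of SK-UT-1B. The combination libraries of SK-UT-1B lay on either side of the DMSO libraries. ARRDC1 (ENSG00000197070.14), which drives the budding of vesicles from the plasma membrane, had 7.08 to 20.5 CPM. ARRDC2 (ENSG00000105643.11) had 5.95 to 14.4 CPM. For ARRDC1, every neighboring pair of groups in the order of means overlapped, and for ARRDC2, all but 1 pair did. ARRDC5, the remaining alpha-arrestin, had 0 counts in every library.

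Among the regulators, MLXIP (ENSG00000175727.14) had the highest mean CPM in every group. It had 108 and 109 CPM in DMSO set 2, 87.6 and 107 CPM after MK-0752, 139 and 119 CPM in DMSO set 4, and 121 CPM in both combination libraries of SK-LMS-1. In SK-UT-1B, it had 177 and 129 CPM with DMSO, then 114 and 179 CPM with the combination. The lines overlapped for MLXIP, and its range over all libraries was 2.04-fold, the narrowest of the 7 members detected in every library. MLX (ENSG00000108788.12), the shared partner, had 18.3 to 39.1 CPM in SK-LMS-1 and 35.5 to 47.4 CPM in SK-UT-1B, and the top of the SK-LMS-1 range was DMSO 4-1 alone, the next library being at 24.5 CPM. MLXIPL (ENSG00000009950.16) had 0 counts in all 8 SK-LMS-1 libraries, and in SK-UT-1B the DMSO libraries had 0 and 47 counts and the combination libraries 24 and 4. Its highest value corresponds to 2.63 estimated molecules, so its levels could not be compared at this depth, and no fold change is given.

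**Figure D2:**
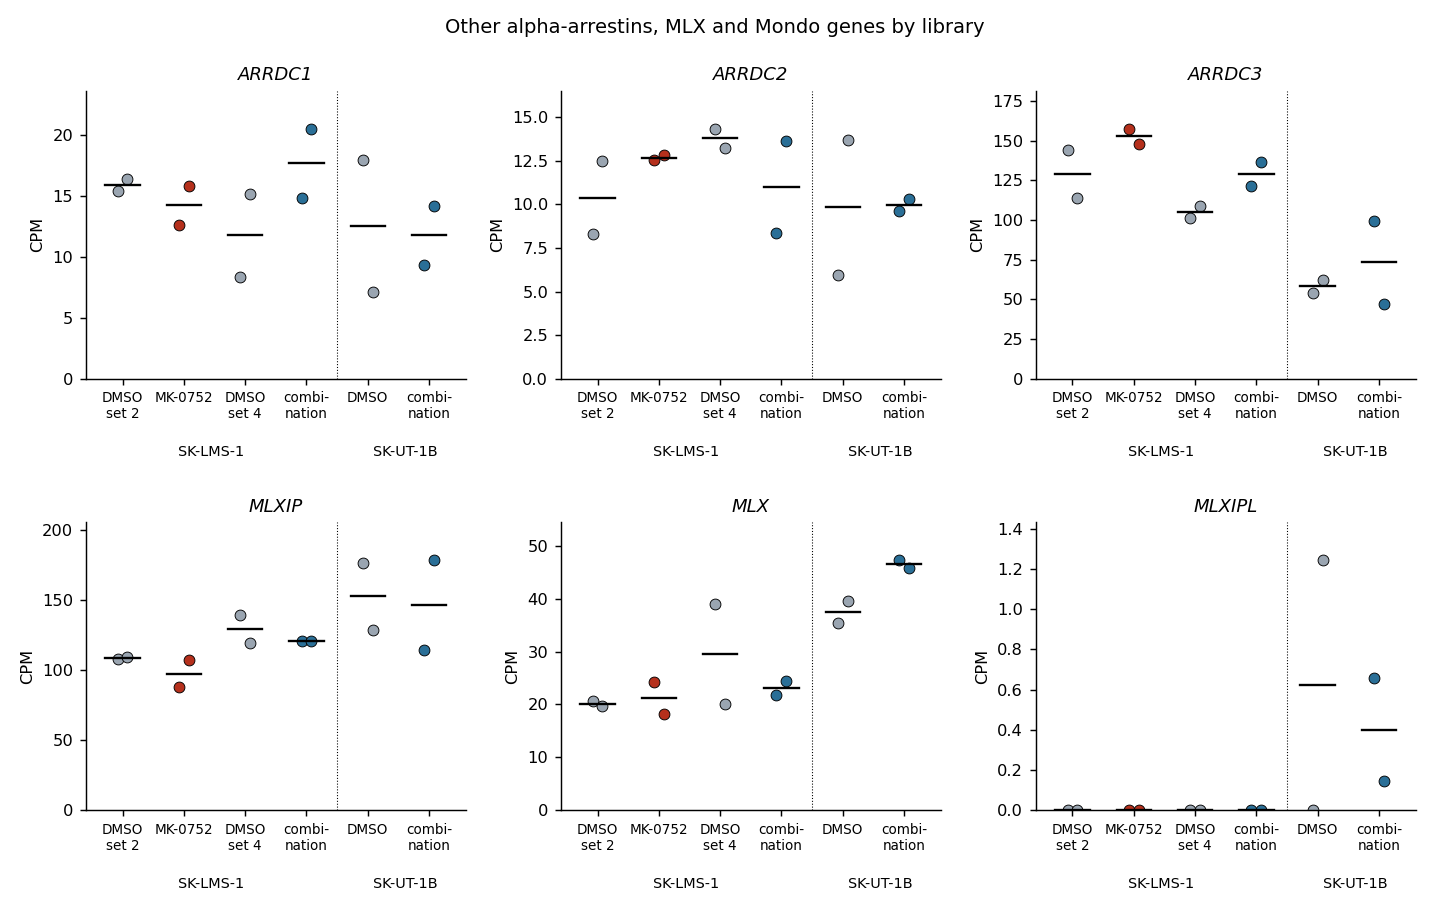
CPM of the other 6 members on linear axes from 0 in the 6 groups of 2 libraries, with points for libraries and lines for means. ARRDC3 is at 101 to 158 CPM in SK-LMS-1 and 47.0 to 99.5 CPM in SK-UT-1B, and MLXIPL has no counts in SK-LMS-1.

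Per kb of exon, which allows levels of different genes to be compared, ARRDC3 was highest of the members in every SK-LMS-1 group but MK-0752, with a mean of 21.1 to 25.9 CPM per kb. TXNIP was highest after MK-0752, at 188 ± 15.8 CPM per kb (SD, n = 2), and in SK-UT-1B, at 53.3 ± 1.48 CPM per kb after DMSO and 106 ± 34.6 after the combination. In DMSO set 4, TXNIP ranked 6 of 8 at 2.27 ± 0.99 CPM per kb and ARRDC4 ranked 7 at 1.67 ± 0.93. MLXIP and MLX were between 4.73 and 11.01 CPM per kb in every group, above TXNIP in both DMSO sets of SK-LMS-1 and below it in SK-UT-1B. MLX was above MLXIP in SK-UT-1B after the combination, at 10.9 against 10.6 CPM per kb, and below it in every other group.

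**Figure D3:**
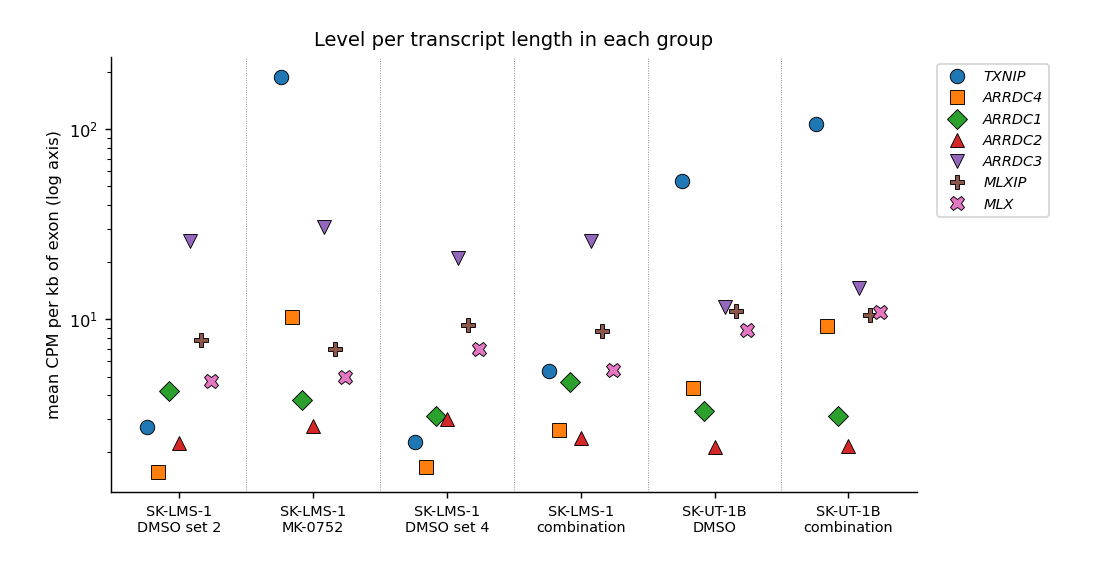
Mean CPM per kb of exon on a log axis for the 7 members detected in every library, by group of 2 libraries. TXNIP is at 2.27 and 2.73 CPM per kb in the DMSO sets of SK-LMS-1, 53.3 in SK-UT-1B after DMSO, and 188 after MK-0752.

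Comparison of the combination with DMSO, which asks whether the members respond to MK-0752 with chemotherapy, used other libraries than the comparison that chose the members, although the choice was made with earlier results of all these libraries known. In SK-LMS-1, TXNIP was higher in both combination libraries than in both of DMSO set 4, with a log2FC of 1.21 (standard error 0.29, 95% interval 0.58 to 1.84). With edgeR's quasi-likelihood test and Benjamini-Hochberg adjustment over all genes it did not pass, with an adjusted p of 0.796 and an unadjusted p of 0.00136. ARRDC4 had a log2FC of 0.64 (95% interval -0.24 to 1.51, edgeR adjusted p = 0.907). ARRDC1 had 0.58, ARRDC3 0.29, ARRDC2 -0.33, MLXIP -0.10, and MLX -0.35. With 1 library left out, the log2FC ran from 0.17 to 1.36 for ARRDC4 and from 0.22 to 1.08 for ARRDC1, and neither passed in any of the 11 alternatives. In all, edgeR called 0 of 8 members, beside 0.0237% of all genes, and 1 of 8 had an unadjusted p under 0.05, beside 4.33% of all genes.

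The TXNIP call in SK-LMS-1 depended on the test and on 1 library. DESeq2 called it, as the only member, with a log2FC of 1.19 and an adjusted p of 0.0128. Each fit that left out a library, here and throughout, kept 1 library in that group, so the spread came from the other groups. In edgeR, TXNIP passed without DMSO 4-2 (log2FC 1.75, adjusted p = 0.0319) and without a filter on low counts (log2FC 1.18, adjusted p = 7.13e-07). Without DMSO 4-1, the log2FC was 0.84, under the fold threshold, with an edgeR adjusted p of 1.00, and over the 11 alternatives its adjusted p ran from 7.13e-07 to 1.00.

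In SK-UT-1B, TXNIP was again higher in both combination libraries, with a log2FC of 0.99 (standard error 0.27, 95% interval 0.40 to 1.59), and it did not pass (edgeR adjusted p = 0.166, unadjusted p = 0.00355). ARRDC4 was also higher in both, with a log2FC of 1.08 (standard error 0.41, 95% interval 0.21 to 1.95), and did not pass (edgeR adjusted p = 0.304, unadjusted p = 0.0171). For ARRDC3, the log2FC was 0.33, for MLX 0.31, for ARRDC2 0.02, for MLXIP -0.06, and for ARRDC1 -0.09. Thus edgeR called 0 of 8 members, beside 0.559% of all genes, DESeq2 called 0, and 2 of 8 had an unadjusted p under 0.05, beside 10.5% of all genes. Without combination library 3-3, both genes passed the edgeR test, with a log2FC of 1.29 (adjusted p = 0.0107) for TXNIP and 1.499 (adjusted p = 0.0356) for ARRDC4, and without 3-1 the log2FC was 0.59 and 0.45. With DESeq2, the adjusted p of TXNIP was 0.0116 at a log2FC of 0.98, under the fold threshold. Over the 9 alternatives, the adjusted p ran from 5.77e-06 to 0.682 for TXNIP and from 0.0356 to 1.00 for ARRDC4.

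The combination effects of the lines were then compared with each other by an interaction term in the same edgeR fit, although the doses differed by line. The effect in SK-UT-1B minus that in SK-LMS-1 was a log2FC of -0.21 for TXNIP (95% interval -1.08 to 0.65) and 0.44 for ARRDC4 (95% interval -0.78 to 1.67), with an edgeR adjusted p of 1.00 for both. These intervals include differences of over 1.5-fold in either direction, so neither a difference of that size nor its absence was shown. The test called 0 of 8 members, beside 0.232% of all genes, as did DESeq2, and 0 of 8 had an unadjusted p under 0.05, beside 7.67% of all genes.

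The lines themselves were compared after DMSO and after the combination, with the log2FC positive where SK-LMS-1 is higher, and TXNIP differed between them by a larger fold than between the combination and DMSO within either line. After DMSO, TXNIP was 23.2-fold lower in SK-LMS-1 (95% interval 14.3 to 37.6), a log2FC of -4.54 with a standard error of 0.32 (edgeR adjusted p = 1.84e-07). ARRDC4 was 2.59-fold lower (95% interval 1.40 to 4.76), a log2FC of -1.37 with a standard error of 0.42 (edgeR adjusted p = 0.0145). Both folds include DMSO 4-1 of SK-LMS-1, where TXNIP and ARRDC4 rest on an estimated 5.44 and 3.96 molecules, so their size is uncertain. ARRDC3 was higher in SK-LMS-1 with a log2FC of 0.85 (SE 0.26, edgeR adjusted p = 0.0160), under the fold threshold. With all 4 SK-LMS-1 DMSO libraries as one group, its log2FC was 1.01 and it was called. With 1 library left out, its log2FC was 0.71 to 0.96, and the edgeR adjusted p rose to 0.162 without DMSO 4-1 of SK-UT-1B, 0.0901 without DMSO 4-2 of SK-LMS-1, and 0.0572 without DMSO 4-1 of SK-LMS-1. MLX had a log2FC of -0.35, MLXIP -0.24, ARRDC1 -0.09, and ARRDC2 0.49, none of which passed. Thus 2 of 8 members were called, a share close to the 28.2% of all genes called in either direction. Both were lower in SK-LMS-1, a larger share than the 11.9% of all genes called lower, and 8 members are too few to read more from it. ARRDC4 did not pass without DMSO 4-1 of SK-LMS-1 (log2FC -0.90, edgeR adjusted p = 0.167) or without DMSO 4-2 of SK-UT-1B (log2FC -1.12, edgeR adjusted p = 0.106), and over its 11 alternatives the adjusted p ran from 0.000525 to 0.167. TXNIP passed in all 11 alternatives, with a log2FC from -5.08 to -4.17.

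After the combination, TXNIP was 20.0-fold lower in SK-LMS-1 (95% interval 12.5 to 32.1), a log2FC of -4.32 with a standard error of 0.31 (edgeR adjusted p = 2.64e-07). ARRDC4 was 3.52-fold lower (95% interval 1.90 to 6.50), a log2FC of -1.81 with a standard error of 0.42 (edgeR adjusted p = 0.00209), and it passed in all 9 alternatives. MLX was 2.01-fold lower (95% interval 1.31 to 3.09), a log2FC of -1.01 with a standard error of 0.30 (edgeR adjusted p = 0.0116). ARRDC3 was again higher but under the fold threshold, with a log2FC of 0.81 (edgeR adjusted p = 0.0223). Without the SK-UT-1B combination library 3-1 it was called, with a log2FC of 1.43 (edgeR adjusted p = 9.45e-06), without 3-3 the log2FC was 0.37 (edgeR adjusted p = 0.181), and over its 9 alternatives the adjusted p ran from 9.45e-06 to 0.181. The 3 of 8 members called were all lower in SK-LMS-1, beside 25.4% of all genes called in either direction and 9.88% called lower. Both shares are below that of the members, and 8 members are again too few to read more from it. MLX lost its call without the SK-LMS-1 combination library 4-1 (log2FC -0.93, edgeR adjusted p = 0.102) or 4-2 (log2FC -1.10, edgeR adjusted p = 0.0526), and its adjusted p over 9 alternatives ran from 0.00188 to 0.102. MLX also shares 775 exon bases, 18.2% of its exons, with PSMC3IP on the other strand, which had 12 to 483 counts, and the strand setting of the counts is not given in the sources used here. The comparisons of the lines share their libraries with the combination comparisons, so they are not independent of them. The keratins KRT8 and KRT18 and the muscle markers given above differ between the lines as well, and their part in these results was not tested.

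**Figure D4:**
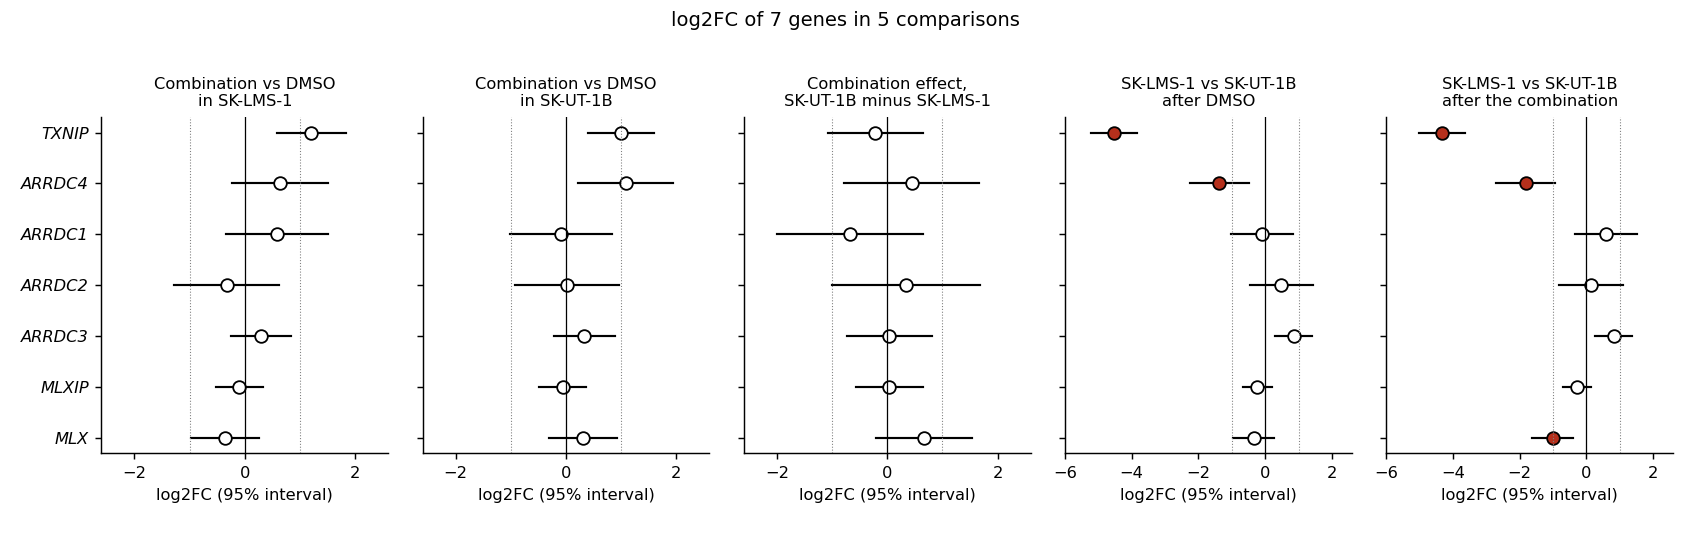
The log2FC with its 95% interval for 7 members in the 5 comparisons other than MK-0752 alone against DMSO, with filled points for genes that passed edgeR's test and the fold threshold (dotted lines) and open points for the rest. TXNIP is at 1.21 and 0.99 after the combination and at -4.54 and -4.32 between the lines.

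The genes that work with the members were read from 7 lists, with 76 of 89 genes tested. After the combination, edgeR called 0 of them in SK-LMS-1, with 2 at an unadjusted p under 0.05, beside 4.33% of all genes, and 0 called by DESeq2. In SK-UT-1B, edgeR also called 0, with 18 at an unadjusted p under 0.05, beside 10.5% of all genes, and 1 called by DESeq2. The interaction gave 0, with 11 at an unadjusted p under 0.05, beside 7.67% of all genes, and 0 by DESeq2. After MK-0752 alone, 1 of the 76 met the thresholds, SCD, which makes monounsaturated fatty acids and is a ChREBP target, at 868 ± 58.4 CPM in DMSO set 2 and 1894 ± 10.6 CPM after MK-0752 (SD, n = 2). DESeq2 called 2, and 0.251% of all genes were called by edgeR. As that comparison chose the members, this is a description. Between the lines after DMSO, 33 of 76 were called, of which SK-LMS-1 was higher for 20 and lower for 13, a share of 43.4% beside 28.2% of all genes. After the combination, 31 of 76 were called, 18 of them higher in SK-LMS-1 and 13 lower, a share of 40.8% beside 25.4% of all genes. The counts of each list below stand beside the same shares of all genes, 28.2% after DMSO and 25.4% after the combination.

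The NEDD4 family ubiquitin ligases, which alpha-arrestins recruit, were higher in SK-LMS-1 where they differed. After DMSO, 5 of 9 were higher and 0 lower, beside 28.2% of all genes called in either direction. The median log2FC was 1.18 over the list and 0.00 over all genes. NEDD4L, which degrades sodium channels, had 209 ± 16.9 CPM in SK-LMS-1 and 14.6 ± 3.91 CPM in SK-UT-1B (SD, n = 2), a log2FC of 3.84. SMURF2 and SMURF1, which act on the TGF-beta pathway, had a log2FC of 2.25 and 1.81. HECW1 was called higher, with 392 and 437 counts in DMSO set 4 of SK-LMS-1 and 0 in both DMSO libraries of SK-UT-1B. After the combination, 4 of 9 were higher and 0 lower, beside 25.4% of all genes called in either direction. The subunits of AMPK, a kinase that senses low energy and promotes degradation of TXNIP, differed between the lines as well. After DMSO, 4 of 6 were higher in SK-LMS-1 and 0 lower, beside 28.2% of all genes called in either direction. The catalytic subunit PRKAA2 had 448 and 859 counts against 29 and 35 in SK-UT-1B. PRKAG2, PRKAB1, and PRKAA1 had a log2FC of 1.80, 1.196, and 1.10. PRKAB2 had a log2FC of -0.73 and was not called. PRKAG1 also pointed lower in SK-LMS-1 but was at or under 3 counts in both lines and was not called. After the combination, 3 of 6 were higher and 0 lower, beside 25.4% of all genes called in either direction.

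Hexose transporters and hexokinases, which bring in and phosphorylate glucose, differed in both directions, and SK-LMS-1 was higher for 5 of 13 and lower for 2 with DMSO. SLC2A1 (GLUT1), the ubiquitous glucose transporter, had 144 ± 20.8 CPM in SK-LMS-1 and 34.4 ± 3.72 CPM in SK-UT-1B (SD, n = 2), a log2FC of 2.07. SLC2A12 was called higher, with 854 and 1698 counts in DMSO set 4 of SK-LMS-1 and 0 and 28 in SK-UT-1B. SLC2A6 was called lower, with 66 and 63 counts against 1214 and 1292, as was SLC2A4 (GLUT4), the insulin-responsive transporter, with 0 in both against 48 and 82. For these 3 genes, 1 line had a library with few or no molecules, at the reads per molecule given above. No fold is therefore given for them, for HECW1 and PRKAA2 above, or for ME1, PNPLA3, MAP3K5, GLRX, and NXN below. A library with few molecules, DMSO 4-1 of SK-LMS-1, also enters the folds given above for TXNIP and ARRDC4. After the combination, 4 of 13 genes of this list were higher and 2 lower.

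Lipogenic and glycolytic targets of MondoA and ChREBP also differed in both directions, since SK-LMS-1 was higher for 3 of 17 and lower for 5 with DMSO, and the same counts held with the combination. The list's median log2FC was -0.82 after DMSO and -0.09 with genes at or under 3 counts in a group set to their bound. FASN, the fatty acid synthase, had 182 ± 14.5 CPM in SK-LMS-1 and 758 ± 92.0 CPM in SK-UT-1B (SD, n = 2), a log2FC of -2.06, and PNPLA3, a lipid hydrolase, was called lower, with 77 and 88 counts against 387 and 225. ELOVL6, which elongates fatty acids, had a log2FC of 1.77. ME1, malic enzyme, was called higher, with 902 and 1287 counts in DMSO set 4 of SK-LMS-1 against 0 counts in both SK-UT-1B libraries with DMSO. After the combination, KLF10, a transcription factor, had 43.8 ± 5.02 CPM in SK-LMS-1 and 148 ± 49.5 CPM in SK-UT-1B, a log2FC of -1.76, and ACACB had -1.84.

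In the thioredoxin and peroxiredoxin system, SK-LMS-1 was higher than SK-UT-1B for 2 of 18 genes and lower for 3 with DMSO, against 3 and 2 with the combination. These shares are close to those of all genes called in either direction, 28.2% with DMSO and 25.4% with the combination. MAP3K5 (ASK1), a kinase held inactive by thioredoxin, was called higher, with 1569 and 1662 counts in DMSO set 4 of SK-LMS-1 and 4 and 37 in SK-UT-1B. GLRX, a glutaredoxin, was also called higher, with 722 and 1274 counts against 55 and 202. TXN2, the mitochondrial thioredoxin, had a log2FC of -1.66, and NXN, nucleoredoxin, was called lower, with 57 and 152 counts against 471 and 809. TXN, the thioredoxin bound by TXNIP, had a log2FC of 0.70 with DMSO, not called, and of 1.06 with the combination, where it was called. In the MYC/MAX/MLX network, whose members share E-box sequences and partners with MLX, 2 of 9 were higher and 2 lower with DMSO, namely MXI1 at 1.55, MNT at 1.23, MYC at -1.39, and MGA at -1.09. With the combination, 1 was higher and 3 lower. Of 5 other arrestins tested, ARRB1, which desensitizes G protein-coupled receptors, was lower in SK-LMS-1 after DMSO with 0 and 9 counts against 2148 and 2359 in SK-UT-1B.

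**Figure D5:**
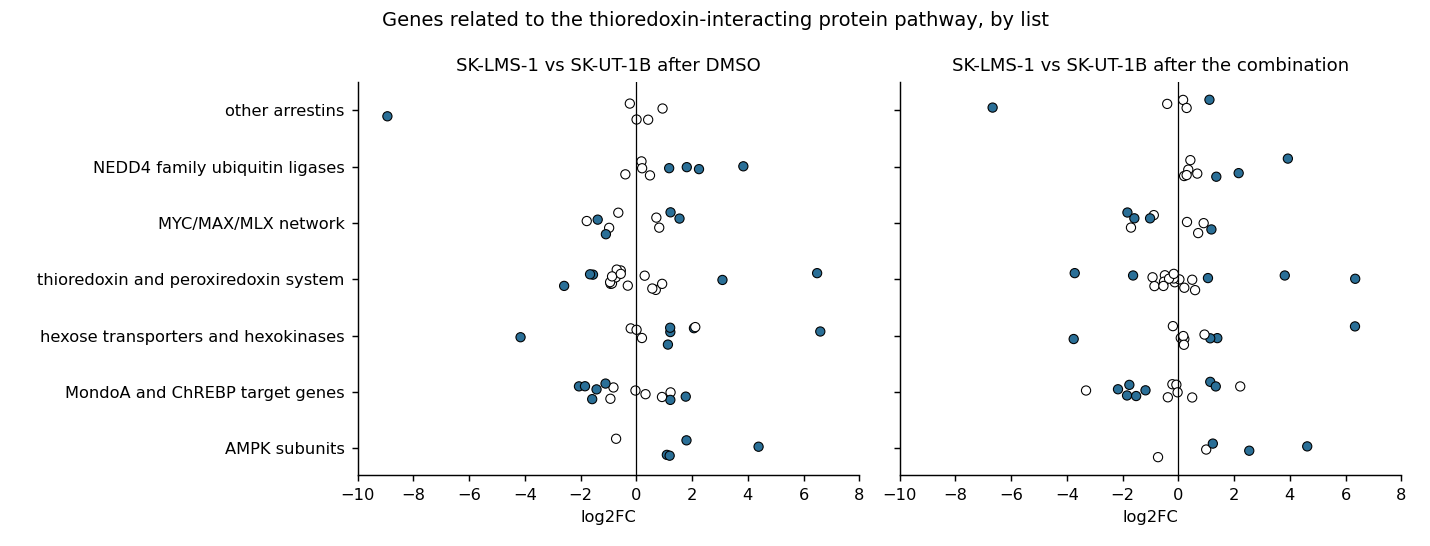
The log2FC of list genes between the lines, positive where SK-LMS-1 is higher, after DMSO and after the combination, with filled points for genes called by edgeR's test at the fold threshold; the vertical spread within a row is only for display, and 9 and 8 points with a group at or under 3 counts are left out. NEDD4 family ligases and AMPK subunits have filled points only to the right of 0.

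The genes most like TXNIP and ARRDC4 over the 8 SK-LMS-1 libraries were named from 1553 candidates by the Pearson correlation of log2 CPM, as a description. The points share the MK-0752 libraries, which are highest for both members, and candidates were limited to genes that varied over the 8 libraries. A high r can therefore largely repeat the rise that chose the members. TXNIP with ARRDC4 had an r of 0.96 over 8 libraries and 0.74 over the 6 without MK-0752 alone. For the genes named here, r without MK-0752 was not computed. For TXNIP, the most similar genes were GBP2 (r = 0.95), SCD (0.94), TRANK1 (0.94), IFI44L (0.93), and APOBEC3F (0.92). For ARRDC4, they were GBP2 (r = 0.98), IFI44L (0.97), INSIG1 (0.95), APOBEC3F (0.94), and NHSL2 (0.94). GBP2 and IFI44L are interferon-induced genes, and INSIG1 restrains cholesterol synthesis. GBP2 had a mean of 19.4 CPM in DMSO set 2, 17.0 in DMSO set 4, 22.3 after the combination, and 52.8 after MK-0752, and INSIG1 had 62.5, 73.0, 99.6, and 177.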

How the data were processed

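RNA was sequenced from 12 libraries in 6 groups of 2. Stranded libraries were prepared from ribosome-depleted total RNA and read from a single end. Per the labels and the study's methods, the authors trimmed reads with Trim Galore 0.3.7, aligned them to hg38 with STAR 2.7.9a, removed ribosomal RNA, and deposited the whole-number read counts that STAR gave for each gene, not normalized. The annotation, the strand setting, and any removal of duplicate reads are not given in the sources used here, so counts of overlapping genes are uncertain. Gene positions and exon lengths came from GENCODE 44, to which 60463 of 60649 identifiers matched (MLXIP in another version), and promoters from RefSeq, where all 8 members were found.

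Counts were tested with edgeR 4.0.16 in R 4.3.3 (TMM, filterByExpr, robust quasi-likelihood fit over all 12 libraries), with Benjamini-Hochberg adjustment over the 21114 genes tested, all 8 members among them. A gene was called where its log2FC was 1 or more in size and adjusted p was under 0.05. Tests were two-sided. The script was tested on simulated data. Nothing says that libraries of a group came from separate cultures, so p-values measure the spread between these libraries, which may be technical. Libraries of a group differed by more than sampling noise. Bounds use a floor of 3 counts per library and cover counting error only. That floor is below the reads per molecule given above, so a bound can overstate a fold.

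All 8 members and the 5 genes most correlated with TXNIP and with ARRDC4 were named. List genes were drawn from those called (at most the 4 with the largest log2FC per list and comparison). Outside this rule, the markers, ARRDC5, PSMC3IP, TXN, PRKAB2, and PRKAG1 were also named. The members, lists, and rules were chosen with earlier results of these data known. Alternatives were DESeq2 1.42.0, its size factors in edgeR, filters of 1 count in total or of a mean of 50 counts, only the libraries of a comparison, all 4 SK-LMS-1 DMSO libraries or the other DMSO set as the control, a replicate block, and each library left out in turn.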

Additional observations from a re-analysis of the deposited data

How the results depend on the processing

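With DESeq2, the number of genes called was 30 for the combination in SK-LMS-1 (5 with edgeR), 369 in SK-UT-1B (118), 143 for the interaction (49), and 131 after MK-0752 (53). Without a filter on low counts it was 73, 420, 303, and 175. A mean of at least 50 counts gave 1 for the combination in SK-LMS-1, 24 for the interaction, and 35 after MK-0752, and only the libraries of the comparison gave 9, 26, and 183. DESeq2 and no filter each called 1 member, TXNIP, for the combination in SK-LMS-1. The cause of these shifts was not tested. The deviations of same-numbered libraries were not correlated (-0.01 and 0.01 for the sets of 2 pairs). With 2 libraries per group, each value rests on a single contrast, so it cannot tell whether same-numbered libraries share a culture or batch. With a replicate block, 2 genes were called for the combination in SK-LMS-1 and 5893 between the lines after DMSO (5963 without it).

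Leaving out each library in turn gave 0 to 29 genes for the combination in SK-LMS-1, 140 to 812 for the combination in SK-UT-1B, 5227 to 5710 for the lines after DMSO, 4456 to 5086 for the lines after the combination, 21 to 498 for the interaction, 14 to 45 for MK-0752. The number of members called ran over 0 to 1, 0 to 2, 1 to 2, 2 to 4, and 0 to 0 for the first 5 of these.

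Directions turned only for member values that were not called by edgeR. After MK-0752 they turned with all 4 SK-LMS-1 DMSO libraries for ARRDC1 (0.040) and MLX (-0.23), and for MLX without MK-0752 library 2-2 (-0.14), beside the turns with DMSO set 4 given above. With all 4 SK-LMS-1 DMSO libraries, the log2FC was 0.022 for MLXIP after the combination in SK-LMS-1, 0.14 for ARRDC1 between the lines after DMSO, and -0.082 for MLXIP in the interaction. It was 4.24e-06 for ARRDC1 between the lines with the block, and -0.0034 for ARRDC2 in SK-UT-1B without the filter. With a library left out, it ran over -0.21 to 0.016 for MLXIP, -0.76 to 0.20 for MLX in the combination in SK-LMS-1, -0.61 to 0.69 for ARRDC1, -0.50 to 0.74 for ARRDC2, -0.34 to 0.77 for ARRDC3, -0.42 to 0.20 for MLXIP in the combination in SK-UT-1B, -0.61 to 0.68 for ARRDC1, -0.037 to 1.21 for ARRDC2, -0.90 to 0.057 for MLX in the lines after DMSO, -0.26 to 0.45 for ARRDC2, -0.59 to 0.079 for MLXIP in the lines after the combination, -0.76 to 0.16 for TXNIP, -1.20 to 0.13 for ARRDC1, -0.14 to 1.07 for ARRDC2, -0.60 to 0.48 for ARRDC3, -0.28 to 0.91 for ARRDC4, -0.32 to 0.34 for MLXIP in the interaction. Low levels limit TXNIP and ARRDC4 in the SK-LMS-1 DMSO libraries, which rest on an estimated 3.96 to 19.1 molecules each, and 2 libraries per group limit every comparison.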
